A study of Mus musculus with 8 samples.

Results

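The expression of 10 genes that encode metabolic nuclear receptors was compared between WT and SIRT1 KO mouse hearts. They are the estrogen-related receptors (*Esrra*, *Esrrb*, *Esrrg*), *Ppard* and *Pparg* of the peroxisome proliferator-activated receptors (PPARs), the liver X receptors (LXRs) *Nr1h2* and *Nr1h3*, and the retinoid X receptors (RXRs) *Rxra*, *Rxrb* and *Rxrg*. Every non-control array probe whose accession maps to one of these genes was kept, which gave 13 of 41174 probes: 7 genes have 1 probe, and *Esrrg*, *Rxra* and *Rxrb* have 2 each. Total RNA of whole hearts of E18.5 embryos was labeled and read on 8 one-color Agilent arrays, 4 labelled WT and 4 labelled SIRT1 KO. The strain is C57BL/6 in the labels and C57BL/6J in the methods of the study, and the mice were kept on a chow diet with no treatment. SIRT1 KO embryos lack *Sirt1* through the germ line in the whole body, so the deletion is not restricted to cardiomyocytes, and in the study they came from crosses of heterozygous parents. The replicates are separate embryos, 4 per genotype.

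ERR, PPAR and LXR proteins are transcription factors that set the level of genes for energy and lipid metabolism. ERRs are orphan receptors that act with PGC-1 coactivators on mitochondrial genes, PPARs sense fatty acids, and LXRs sense oxidized cholesterol. RXRs are the shared partners with which PPARs and LXRs pair on DNA. SIRT1 is an NAD+-dependent deacetylase known to act on PGC-1α and on LXR proteins. The arrays measure RNA, so acetylation of these proteins is outside the measurement.

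The receptors recognize variants of the hexamer AGGTCA. PPAR-RXR pairs bind 2 copies spaced by 1 base (AGGTCANAGGTCA), LXR-RXR pairs bind 2 copies spaced by 4 bases (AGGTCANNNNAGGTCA), and ERRs bind 1 copy with an added A (AAGGTCA). These letters were searched on both strands, with the shorter motifs counted also within the longer ones, in the 250 bases before each annotated start of the 10 genes (20 windows, RefSeq, build GRCm38.p6). AGGTCA was in 4 of the 20 windows, of *Pparg*, *Rxra* and *Rxrg*, against 14.0% of all 32851 windows of this length. AAGGTCA was in 2 of them, against 4.08% of all windows, and neither of the spaced pairs was in any of the 20, against 0.0335% and 0.0152% of all windows. The AGGTCA copies of *Pparg* ended 22 and 3 bases before its starts. The windows with AAGGTCA are printed because they belong to *Rxra* and *Rxrg*, whose fitted differences were the furthest from 0 among the RXR genes on their brightest probes, 0.30 and -0.37, although neither passed the threshold and the second *Rxra* probe gave -0.10. They are given 5′ to 3′ with AGGTCA, or TGACCT where it lies on the opposite strand, in capitals. The *Rxra* window is chr2:27709042-27709291 on the plus strand, and its copies end 81 and 42 bases before the start. The *Rxrg* window is chr1:167618015-167618264 on the plus strand, and its copy ends 82 bases before the start.
Rxra: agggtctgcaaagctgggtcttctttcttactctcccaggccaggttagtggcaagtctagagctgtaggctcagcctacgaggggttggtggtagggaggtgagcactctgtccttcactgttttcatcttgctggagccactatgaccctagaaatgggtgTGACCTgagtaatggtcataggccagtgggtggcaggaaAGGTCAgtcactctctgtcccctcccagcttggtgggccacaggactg
Rxrg: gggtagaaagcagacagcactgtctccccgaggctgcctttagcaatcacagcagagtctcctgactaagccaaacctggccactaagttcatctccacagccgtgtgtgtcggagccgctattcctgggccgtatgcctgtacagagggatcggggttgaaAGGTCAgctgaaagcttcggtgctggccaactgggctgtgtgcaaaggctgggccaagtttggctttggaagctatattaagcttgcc
Each gene has another annotated start whose window holds no AGGTCA. A match describes these letters and does not show that a receptor binds there.

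Values are log2 of the deposited intensity minus the 75th percentile of the array, so 0 is the level of the 75th percentile, which lay between 934 and 1032 intensity units on WT arrays and between 779 and 900 on SIRT1 KO arrays. A fold change is SIRT1 KO minus WT on this log2 scale, and levels of different probes are not compared because probes differ in brightness for the same RNA. All WT arrays came from 1 slide and scan day and all SIRT1 KO arrays from another, and effects of slide or scan day cannot be told apart from those of genotype. Of the 2 *Sirt1* probes, the brighter was higher on the arrays labelled SIRT1 KO (0.54, adjusted p = 0.0332 from limma) and the other was not changed past the threshold (-0.11, limma adjusted p = 0.59), and whether either lies in the deleted part is not given in the sources used here. SIRT1 KO therefore stands for the arrays labelled so, and every direction rests on these labels. All 8 cardiomyocyte markers tested were well above background on all arrays, and their summed level was 1403 to 1605 times the 75th percentile on WT arrays and 1457 to 1762 times on SIRT1 KO arrays.

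Of the 13 receptor probes, 12 of 9 genes were well above background on at least 4 arrays and were tested with limma among 25615 probes. One probe, of *Esrrg*, was higher in SIRT1 KO hearts at an adjusted p below 0.05, and no receptor probe was lower. In the same fit 4.91% of all probes passed, 3.99% higher and 0.925% lower, and the receptors' share of 8.33% called higher rests on a single probe. The fitted difference was positive for 6 probes and negative for 6, with a median of -0.01 against 0.01 over all probes tested. An unadjusted p below 0.05 was found for 3 receptor probes (*Esrrg*, *Rxra* and *Rxrg*), against 21.5% of all probes. The arrays of the genotypes did not overlap for 2 of the 12, against 13.8% of all probes with a value on every array. The 11 probes that did not pass had fold changes from -0.37 to 0.30, and their 95% intervals reached from -0.59 to 0.52. In RNA from whole hearts, fewer cells of a type and less RNA per cell cannot be told apart.

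**Figure D1:**
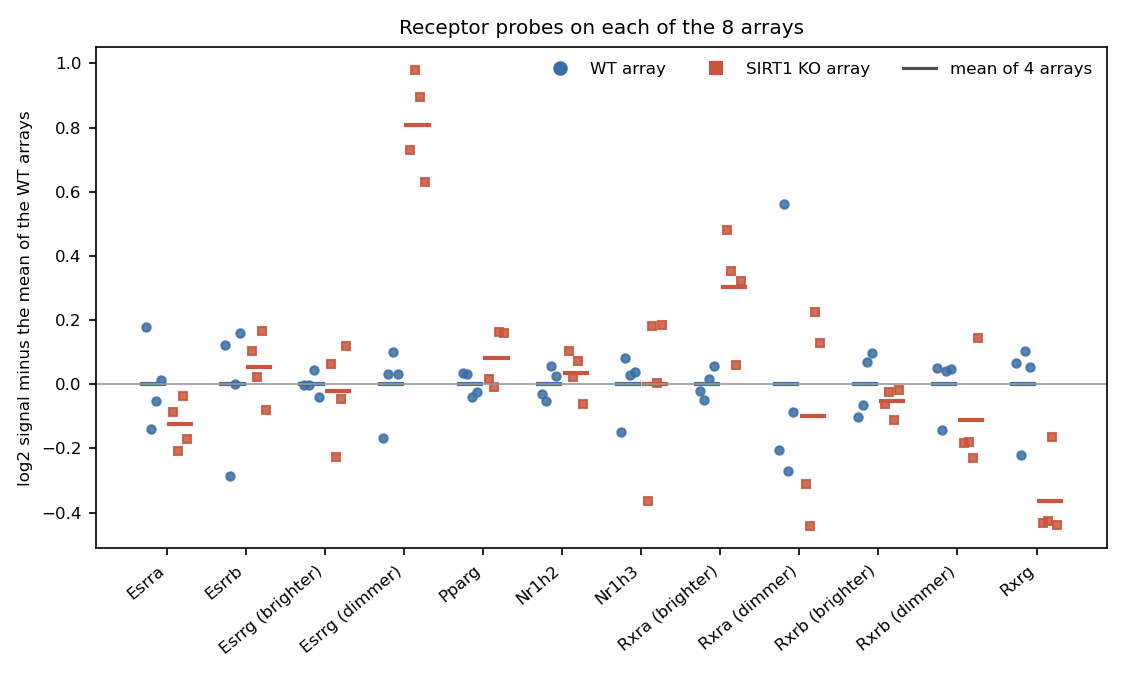
Log2 signal of the 12 tested receptor probes on each array, minus the mean of the 4 WT arrays of that probe. Circles are WT arrays, squares SIRT1 KO arrays and bars the means of 4 arrays. The dimmer *Esrrg* probe stands 0.81 above its WT mean, the brighter *Rxra* probe 0.30 above and *Rxrg* 0.37 below in the SIRT1 KO mean.

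Among the ERRs, *Esrrg* gave different answers on its 2 probes. ERRγ is the member of the family best known for switching the perinatal heart to oxidative metabolism. The dimmer probe (A_51_P224192) read -5.16, -4.97, -4.90 and -4.96 on the WT arrays and -4.27, -4.02, -4.10 and -4.37 on the SIRT1 KO arrays. All 4 SIRT1 KO arrays were above all WT arrays, and the fold change was 0.81 (95% interval 0.58 to 1.03, standard error 0.10, limma adjusted p = 0.00348), or 1.75-fold on the linear scale. With normexp on the median signal, which also changes the signal used and adds an offset of 50 units, it was 0.43 (limma adjusted p = 0.0142). The exact permutation test over the arrays gave p = 0.0286, the smallest that 4 against 4 allows. The brighter probe (A_52_P317246), matched to the same transcript accession, read 0.57, 0.56, 0.61 and 0.53 on the WT arrays and 0.63, 0.34, 0.52 and 0.69 on the SIRT1 KO arrays. Here the SIRT1 KO values lay on both sides of the WT values, and the fold change was -0.02 (95% interval -0.22 to 0.17, adjusted p = 0.908 from limma).

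The dimmer *Esrrg* probe lay close to the limit of the arrays. Its intensity was 28.6 to 34.0 units on WT arrays and 41.9 to 55.6 on SIRT1 KO arrays, while the lowest signal well above background was between 14.8 and 20.1 units, depending on the array. It was at the 9.97th percentile of brightness among the probes tested. Among the dimmest 1 in 3 of the probes, 7.81% were called higher in SIRT1 KO hearts, more than the 3.99% of all probes. Within each array the dimmer probe minus the brighter one was -5.73, -5.53, -5.51 and -5.49 in WT hearts and -4.90, -4.36, -4.63 and -5.05 in SIRT1 KO hearts. This difference does not depend on the scaling of the arrays, and it changed by 0.83 (exact permutation p = 0.0286). The mean of both probes gave 0.39 (limma adjusted p = 0.00877), so the value given for *Esrrg* depends on the probe. Where in the transcript each probe lies was not analysed here.

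**Figure D2:**
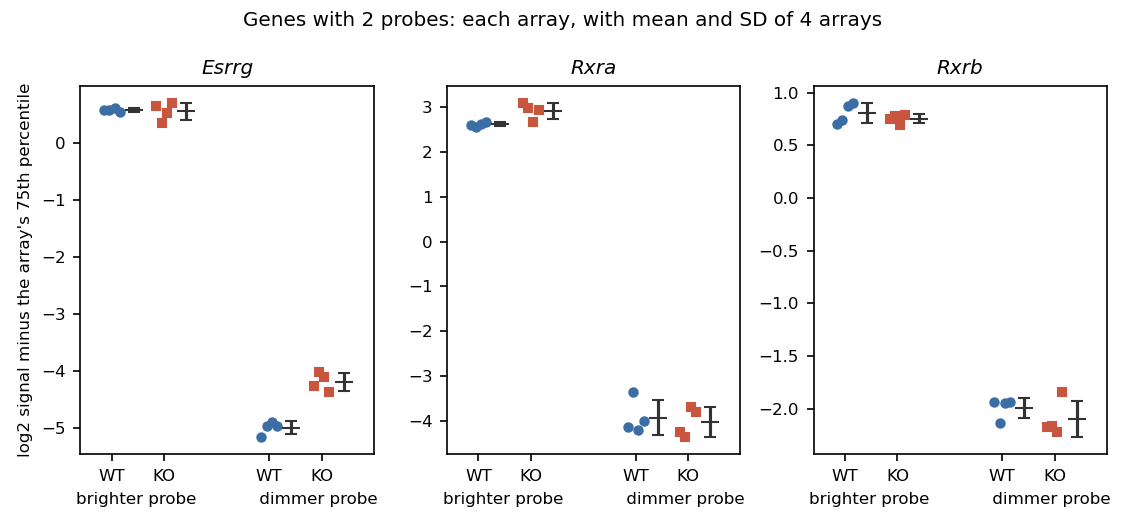
Log2 signal minus the 75th percentile of the array for both probes of *Esrrg*, *Rxra* and *Rxrb*, with WT arrays as circles, SIRT1 KO arrays as squares, and mean and SD (n = 4) beside them. Of the 6 probes, the dimmer *Esrrg* probe and the brighter *Rxra* probe have genotypes that do not overlap.

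*Esrra*, which encodes the ERR most widely used in oxidative tissues, read 4.08, 3.76, 3.85 and 3.91 in WT hearts and 3.81, 3.69, 3.86 and 3.73 in SIRT1 KO hearts. The ranges overlapped, and the fold change was -0.13 (95% interval -0.32 to 0.07, adjusted p = 0.437 from limma). Without scaling between arrays it was -0.34 (adjusted p = 0.0329 from limma). *Esrrb*, known for its part in pluripotent cells and placenta, ranged from -1.45 to -1.01 in WT hearts and from -1.25 to -1.002 in SIRT1 KO hearts (0.05, 95% interval -0.20 to 0.30, limma adjusted p = 0.819). Its direction turned with median scaling (-0.08) and without scaling (-0.17).

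Neither PPAR gene gave a difference that could be called. *Ppard*, which encodes a PPAR that drives fatty acid use in muscle, did not rise well above the background of the arrays in either genotype. Its intensities were 4.5 to 5.1 units on WT arrays and 5.5 to 8.6 units on SIRT1 KO arrays, below the lowest detected signal of every array, and no fold is given. *Pparg*, the main regulator of fat cells, has 1 probe printed in 10 spots. It averaged 0.20, 0.19, 0.12 and 0.13 on the WT arrays and 0.18, 0.15, 0.32 and 0.32 on the SIRT1 KO arrays. SIRT1 KO replicates 3 and 4 were above every WT array and replicates 1 and 2 lay among them. The fold change was 0.08 (95% interval -0.08 to 0.25, adjusted p = 0.541 from limma). The direction turned with median scaling (-0.05) and without scaling (-0.14). The summed level of 7 adipocyte markers was 1.88 to 1.94 on WT arrays and 2.73, 2.53, 2.72 and 1.67 on the SIRT1 KO arrays. Of these markers 5 were well above background on all 8 arrays, and *Lep* was at background on all 8. SIRT1 KO replicate 4 had the lowest marker sum and a *Pparg* value above every WT array, and a part of fat cells in the *Pparg* values was not tested further.

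The LXR genes had fold changes close to 0. *Nr1h2* encodes LXRβ, which is made in most tissues, and read 0.72, 0.69, 0.80 and 0.77 in WT hearts and 0.85, 0.77, 0.82 and 0.68 in SIRT1 KO hearts. *Nr1h3* encodes LXRα, which is prominent in liver and macrophages, and read -1.68, -1.45, -1.50 and -1.49 in WT hearts and -1.89, -1.35, -1.52 and -1.34 in SIRT1 KO hearts. The fold changes were 0.03 (95% interval -0.12 to 0.19, adjusted p = 0.811 from limma) and 0.00 (95% interval -0.29 to 0.29, adjusted p = 0.996 from limma). For *Nr1h3* SIRT1 KO replicate 1 was the lowest of all 8 and SIRT1 KO replicates 2 and 4 were the highest, so the WT values lay inside the SIRT1 KO range. Both genes turned negative with median scaling (-0.10 and -0.13) and without scaling (-0.18 and -0.22). The summed macrophage markers ranged from 2.60 to 3.71 on WT arrays and from 2.51 to 4.15 on SIRT1 KO arrays.

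The fitted differences of the RXR genes had both signs, and none passed the threshold. *Rxra*, the RXR required for growth of the ventricular wall in the embryo, read 2.59, 2.56, 2.63 and 2.67 in WT hearts and 3.10, 2.97, 2.68 and 2.94 in SIRT1 KO hearts on its brighter probe (A_52_P188139). All SIRT1 KO arrays were above all WT arrays, replicate 3 by a small margin. The fold change was 0.30 (95% interval 0.09 to 0.52, exact permutation p = 0.0286) and did not pass the adjustment over all probes (adjusted p = 0.112 from limma). It was 0.39 without SIRT1 KO replicate 3 (limma adjusted p = 0.0258), 0.17 with median scaling (limma adjusted p = 0.215), 0.085 without scaling (limma adjusted p = 0.638) and 0.10 as the mean of both probes (limma adjusted p = 0.594). On the dimmer probe (A_51_P307370) the values were -4.13, -3.36, -4.20 and -4.01 in WT hearts and -4.24, -4.36, -3.70 and -3.80 in SIRT1 KO hearts. They overlapped, with 1 high WT array, and the fold change was -0.10 with a wide 95% interval of -0.58 to 0.38 (adjusted p = 0.824 from limma). That interval holds the fold change of the brighter probe, and the difference between the probes within an array changed by -0.40 (exact permutation p = 0.229).

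*Rxrg*, the RXR of skeletal muscle, heart and parts of the nervous system, read -1.27, -1.56, -1.24 and -1.29 in WT hearts and -1.77, -1.76, -1.50 and -1.78 in SIRT1 KO hearts. SIRT1 KO replicates 1, 2 and 4 lay below all WT arrays, and replicate 3 lay just above WT replicate 2. The fold change was -0.37 (95% interval -0.59 to -0.14), which is 1.29-fold lower, with an adjusted p = 0.0779 from limma and an exact permutation p = 0.0571. It passed without SIRT1 KO replicate 3 (-0.43, adjusted p = 0.037 from limma), with median scaling (-0.50, adjusted p = 0.0364 from limma) and without scaling (-0.58, adjusted p = 0.0116 from limma). *Rxrb*, which is made in nearly all tissues, changed past the threshold on neither probe. The brighter gave -0.05 (95% interval -0.22 to 0.11) and the dimmer -0.11 (95% interval -0.34 to 0.11), with adjusted p = 0.713 and 0.553 from limma. Their levels were 0.70 to 0.90 and -2.13 to -1.94 in WT hearts and 0.69 to 0.79 and -2.22 to -1.85 in SIRT1 KO hearts.

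The balance between RXR genes was then compared within each array, where the scaling cancels. *Rxrg* minus *Rxra* was -3.87, -4.12, -3.87 and -3.96 in WT hearts and -4.87, -4.73, -4.18 and -4.72 in SIRT1 KO hearts. The genotypes did not overlap, and the change was -0.67 (exact permutation p = 0.0286). *Rxrb* minus *Rxra* changed by -0.36 (exact permutation p = 0.0286), again with no overlap, and *Rxrg* minus *Rxrb* by -0.31 (exact permutation p = 0.0571). Each gene stood here by its brighter probe, so the comparisons with *Rxra* rest on the probe that was higher on the SIRT1 KO arrays. Among the ERRs, *Esrrb* minus *Esrra* changed by 0.18 (exact permutation p = 0.0571), *Esrrg* minus *Esrra* by 0.10 (p = 0.314 in the same exact test) and *Esrrg* minus *Esrrb* by -0.08 (p = 0.629 in the same exact test). *Nr1h3* minus *Nr1h2* changed by -0.03 (exact permutation p = 0.886). Of the 7 pairs of genes, 2 reached the smallest p, and of the 3 pairs of probes 1 did. These p-values are not adjusted for the number of pairs, and pairs that share a gene are not independent.

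**Figure D3:**
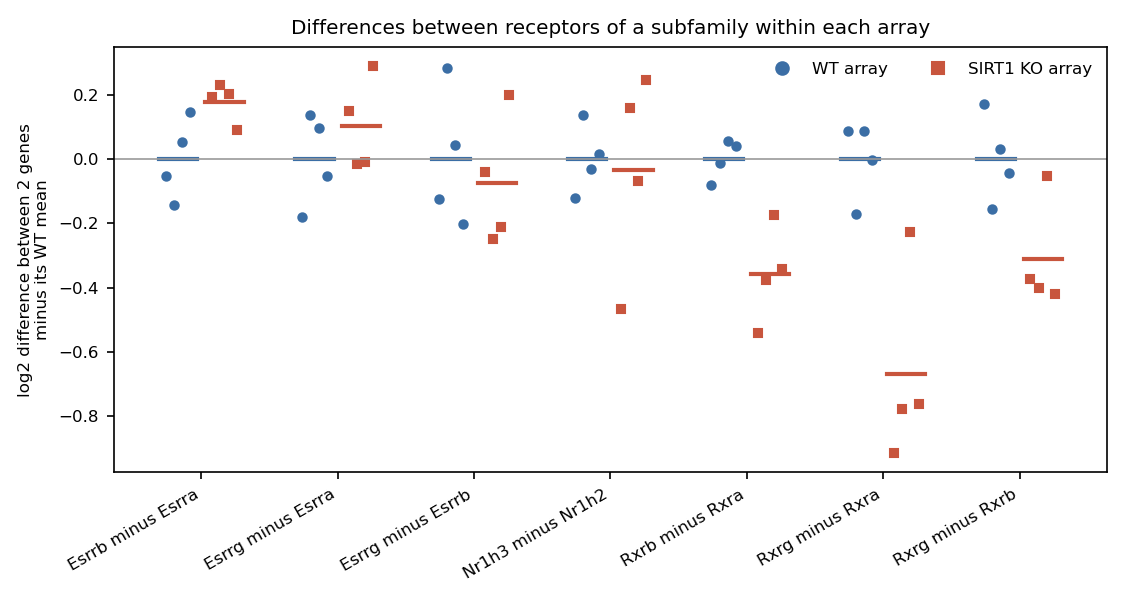
Log2 difference between 2 receptors of a subfamily on each array, minus its mean over the WT arrays. Circles are WT arrays, squares SIRT1 KO arrays and bars means of 4 arrays. The SIRT1 KO arrays lie below all WT arrays for *Rxrg* minus *Rxra* (-0.67) and *Rxrb* minus *Rxra* (-0.36).

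**Figure D4:**
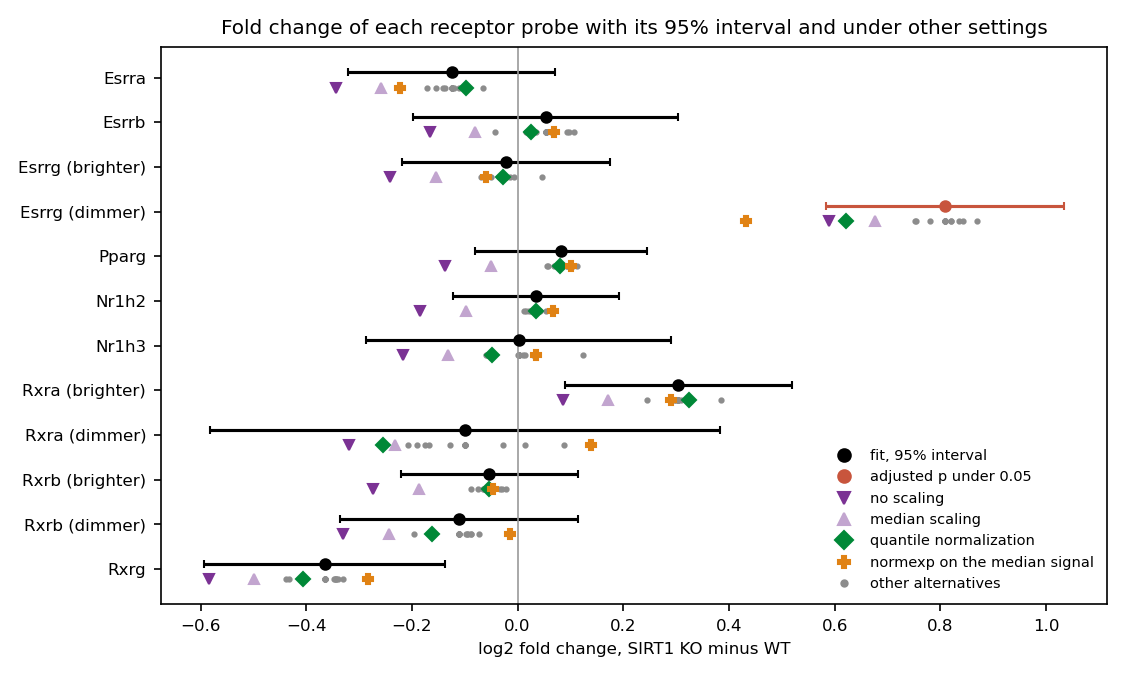
Log2 fold change (SIRT1 KO minus WT) of the 12 tested receptor probes with the 95% interval of the fit, and below it the value under each alternative way of processing. The dimmer *Esrrg* probe stays positive in all 17 alternatives (0.43 to 0.87) and *Rxrg* stays negative in all 17 (-0.58 to -0.28), while median scaling and no scaling, which shift the median of all probes to -0.12 and -0.21, move every probe to the left.

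The proteins that work with these receptors were described through lists of genes, with 1 probe per gene. Of 19 coregulators tested, which include PGC-1 coactivators, the p160 family and the corepressor complexes, none passed the threshold, against 4.91% of all probes, 2 had an unadjusted p below 0.05, against 21.5%, and the median fold change was 0.08 against 0.01 over all probes. *Ep300*, a histone acetyltransferase, read -1.86, -1.67, -1.62 and -1.68 in WT hearts and -1.26, -1.42, -1.57 and -1.21 in SIRT1 KO hearts (0.34, adjusted p = 0.0942 from limma). *Tbl1xr1*, a subunit of the corepressor complexes, read -2.33, -2.18, -2.36 and -2.08 against -2.65, -2.48, -2.43 and -2.49 (-0.28, adjusted p = 0.122 from limma). The genotypes did not overlap for these genes and for *Gps2* (0.16) and *Hdac3* (-0.15), which gives 4 of 19 against 13.8% of all probes. *Ppargc1a*, which encodes PGC-1α, gave -0.14 (limma adjusted p = 0.593).

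Of 20 ERR target genes tested, 2 passed higher and none lower, where 3.99% of all probes passed higher and 0.925% lower, and the median was 0.02. *Cpt1b*, the muscle enzyme that commits fatty acids to mitochondria, read 4.08, 3.86, 3.94 and 3.97 in WT hearts and 4.44, 4.41, 4.26 and 4.25 in SIRT1 KO hearts (0.38, limma adjusted p = 0.034). The second *Cpt1b* probe gave -0.04 (adjusted p = 0.801 from limma, with no value on SIRT1 KO replicate 1). *Mdh1*, the cytosolic malate dehydrogenase, read 6.38, 6.48, 6.59 and 6.41 against 6.80, 6.77, 6.95 and 6.72 (0.35, limma adjusted p = 0.048), while the second *Mdh1* probe gave -0.14 (limma adjusted p = 0.433). For both genes 1 of 2 probes passed. *Cpt1b* passed in 7 and *Mdh1* in 4 of 17 alternatives. An unadjusted p below 0.05 was found for 4 of the 20 ERR targets, against 21.5% of all probes. All SIRT1 KO arrays were above all WT arrays for 3 of the 20, *Cpt1b*, *Mdh1* and *Atp5b*. On the brightest of its 3 probes *Atp5b* had the largest fold change of the list and did not pass (0.44, limma adjusted p = 0.0522). Of 26 PPAR target genes tested, *Cpt1b* was the only one that passed, against 4.91% of all probes. The fold change was negative for 19 of the 26 with a median of -0.10. All SIRT1 KO arrays were below all WT arrays for 4 of them, *Hadha* (-0.27), *Acot2* (-0.23), *Acadvl* (-0.16) and *Cd36* (-0.15), named after their values were seen, and none of these passed the threshold. The opposite held for *Cpt1b* and for *Slc27a1* (0.28), a fatty acid transport protein that did not pass either. The genotypes did not overlap for 13.8% of all probes.

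Of 18 LXR target genes tested, none passed, against 4.91% of all probes, and the median was -0.05. An unadjusted p below 0.05 was found for 4 of the 18, close to the 21.5% of all probes. The 2 with the smallest p were *Apoe*, an apolipoprotein of cholesterol transport, and *Apoc2*, the cofactor of lipoprotein lipase. *Apoe* read 4.46, 4.83, 4.40 and 4.78 in WT hearts and 4.87, 5.12, 5.12 and 5.22 in SIRT1 KO hearts (0.47, adjusted p = 0.07 from limma). *Apoc2* read -2.19, -2.49, -2.91 and -1.54 against 0.16, -1.68, -1.64 and -0.34 (1.41, adjusted p = 0.119 from limma). The summed level of 7 liver markers was 18.3, 15.1, 10.8 and 26.8 on the WT arrays and 115, 17.8, 12.5 and 59.7 on the SIRT1 KO arrays. Of these markers 6 were tested, and all 6 had positive fold changes, from 0.91 to 1.47 with a median of 1.32. None of the 6 passed the threshold. The SIRT1 KO arrays highest in *Apoc2* were also those highest in liver markers, and the part of liver RNA in the *Apoc2* difference was not tested.

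Among 10 other receptors that pair with RXR, 1 passed higher, against 3.99% of all probes. *Nr1i3*, which encodes the xenobiotic receptor CAR and is best known from liver, read -2.90, -2.97, -3.08 and -2.24 in WT hearts and -0.51, -0.53, -1.68 and -1.34 in SIRT1 KO hearts. All SIRT1 KO arrays were above all WT arrays, and the rise was 1.78 (limma standard error 0.29 and adjusted p = 0.0107). It passed in 16 of 17 alternatives and did not pass in the methods' analysis of variance (adjusted p = 0.0671). Replicate 2, with a liver marker sum of 17.8 inside the WT range, was as high in *Nr1i3* as replicate 1 with 115, and the part of liver RNA in this difference was not tested beyond these values. The median of the list was 0.06, and the retinoic acid receptors *Rara*, *Rarb* and *Rarg* had fold changes of 0.27, -0.03 and 0.06 that did not pass. Of 11 genes for RXR ligands and retinoids tested, none passed, against 4.91% of all probes. An unadjusted p below 0.05 was found for 2 of them, against 21.5%, and the median was -0.01. *Aldh1a2*, which makes retinoic acid in the embryo, read 1.75, 2.03, 1.72 and 1.77 against 1.40, 1.43, 1.66 and 1.60 (-0.30, adjusted p = 0.128 from limma), and *Stra6*, a retinol transporter, read 1.35, 0.83, 0.19 and 0.90 against 1.55, 2.95, 1.80 and 1.15 (1.04, limma adjusted p = 0.157). Without SIRT1 KO replicate 2 the *Stra6* value was 0.68.

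Of a list of 26 other nuclear receptors, which shares *Nr0b1* and *Nr0b2* with the coregulators, 13 were tested and the median was -0.02. The list had 1 gene that passed higher, against 3.99% of all probes. It was *Nr5a1*, the steroidogenic factor of gonad and adrenal, which was well above background on all 4 SIRT1 KO arrays and on no WT array. Its values were -5.99, -6.55, -7.08 and -6.77 on WT arrays and -5.47, -5.64, -5.07 and -5.68 on SIRT1 KO arrays. Its mean on the SIRT1 KO arrays was 1.22-fold above the mean of the lowest signals well above background on the WT arrays. On WT replicate 4 that lowest signal was 20.1 units, above the 18.0 and 16.9 units of *Nr5a1* on SIRT1 KO replicates 2 and 4. No fold between the genotypes is therefore given. *Nr5a1* met the filter on dim probes through the SIRT1 KO arrays alone. Its call (limma adjusted p = 0.0256, on fitted WT values below background) is given as a description and supports no difference.

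**Figure D5:**
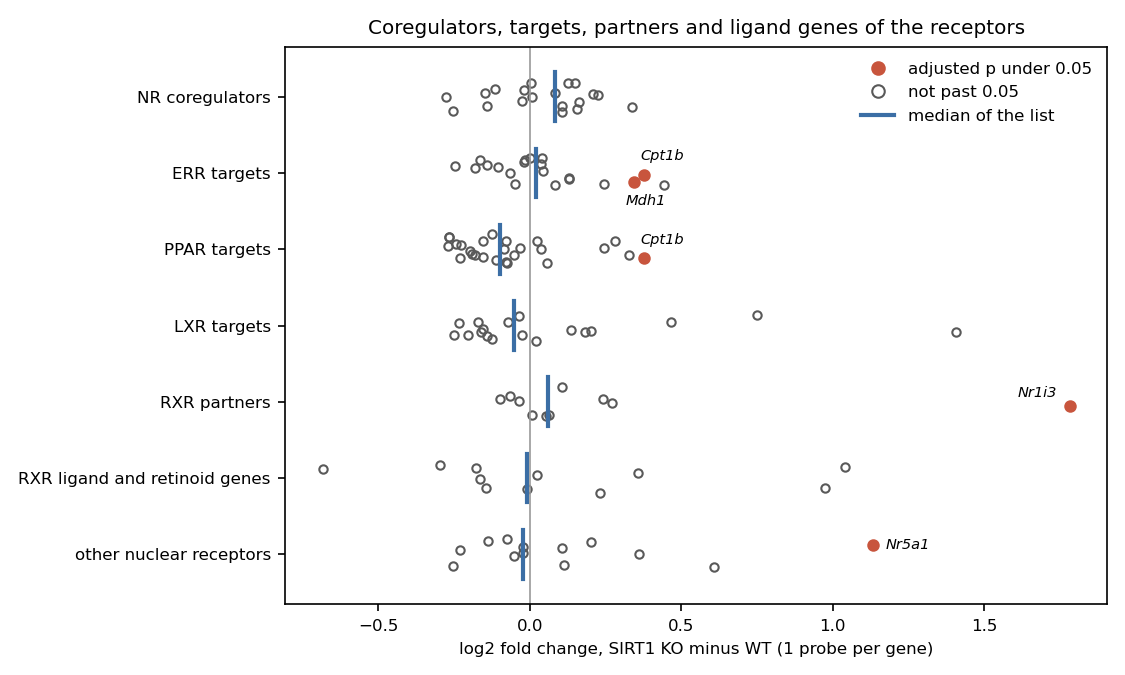
Log2 fold change (SIRT1 KO minus WT) of each tested gene in 7 lists, 1 probe per gene. Filled points passed an adjusted p of 0.05, open points did not, and vertical bars are the medians of the lists, which lie between -0.10 and 0.08. The fitted value of *Nr5a1* is drawn although it was well above background on no WT array.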

How the data were processed

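RNA of 4 WT and 4 SIRT1 KO hearts at E18.5 was measured on one-color arrays. The authors deposited the intensity of every spot as Feature Extraction wrote it (12.0.0.7 per the file headers, 12 in the submitters' processing notes), with background already subtracted and arrays left unscaled. The deposited table of the series holds the same intensity values in 100% of spots, within a relative tolerance of 1e-06. Outlier and control spots were left out, spots of a probe were averaged, and log2 values minus each array's 75th percentile were used. Accessions were matched without versions to RefSeq names of GRCm38.p6, which named 28223 of 41174 probes (68.5%) of 19096 genes. The coordinates in that table were not used, since the array design is from mm9.

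Tests used probes detected well above background by 4 or more of the 8 arrays. They were made with limma 3.58.1 (lmFit, eBayes) in R 4.3.3, with Benjamini-Hochberg adjustment over all 25615 at 0.05. Permutation tests were exact and two-sided over the 8 arrays, computed in R for single probes and with numpy for pairs. Tables used pandas 2.3.3 and numpy 2.4.6, and plots matplotlib 3.10.9. The fit was tested on simulated data. On each array 59.5% to 64.9% of probes were well above background and no spot was saturated. The number of arrays limits the precision.

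A gene in a list stands by its probe with the highest mean, and the genes named are the receptors and, per list, those past the threshold (up to 6) or otherwise the 2 with the smallest p. Other genes were named after their values were seen. The receptors and lists were chosen with earlier results of these data known. Other settings tried were another background correction, 3 other scalings, 2 other filters, the analysis of variance, the replicate block, the deposited table and each array left out. No slide block could be fitted. The study's analysis of variance was computed with genotype as its only factor.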

Additional observations from a re-analysis of the deposited data

Results flagged for a closer look

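In 4 of 24 groups of 4 arrays, 1 array stood apart from the other 3 by more than Dixon's 95% limit, a rule that chance meets in about 1 in 20 groups. On the dimmer *Rxrb* probe (A_51_P314830), WT replicate 2 was the lowest WT array at -2.13 and SIRT1 KO replicate 4 the highest SIRT1 KO array at -1.85. On the *Rxrg* probe, WT replicate 2 was the lowest WT array at -1.56 and SIRT1 KO replicate 3 the highest SIRT1 KO array at -1.50. These last arrays are the ones in which the genotypes overlap for *Rxrg*.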

How the results depend on the processing

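The dimmer *Esrrg* probe remained higher past the threshold in all 17 alternatives it was run under (adjusted p from limma, or from the analysis of variance, 0.00173 to 0.025). All receptor probes without a call kept an adjusted p above 0.05 except those named here. The count of probes called over the arrays was 2380 with normexp on the median signal (chosen after seeing the data, since normexp on the mean signal was not run for want of that column), 1904 when scaled by medians, 6352 unscaled and 517 by the methods' analysis of variance. Of the probes called higher or lower, 81.2% were higher in the fit and 63.9% after quantile normalization, but 35.5% when arrays were scaled by their medians and 10.1% when they were not scaled. Receptor probes called lower numbered 1 with median scaling (*Rxrg*) and 2 without scaling (*Rxrg* and *Esrra*). Genes called in the lists numbered 4 in the fit, 9 after normexp, 8 when scaled by medians, 29 unscaled and 0 by the analysis of variance. Median scaling and no scaling subtract another number from each array, which moved every fold change by -0.13 and -0.22. Directions turned under them for *Esrrb* (-0.080 and -0.17), *Pparg* (-0.050 and -0.14), *Nr1h2* (-0.10 and -0.18) and *Nr1h3* (-0.13 and -0.22). They also turned with quantile normalization for *Nr1h3* (-0.048), with normexp for the dimmer *Rxra* probe (0.14), and with the mean of both probes for the brighter *Esrrg* probe (0.39). The cause was not tested for quantile normalization and normexp.

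With 1 array left out, calls over all probes ranged from 647 (without WT replicate 3) to 1793 (without SIRT1 KO replicate 3), receptor probes called higher from 1 to 2 (adding *Rxra*) and called lower from 0 to 1 (*Rxrg*), both without SIRT1 KO replicate 3, and list genes called from 1 to 5. List genes fell to 1 without WT replicate 2, 3 or 4 or SIRT1 KO replicate 1 or 2. *Esrrb* ranged from -0.042 to 0.11, the brighter *Esrrg* probe from -0.069 to 0.046, *Nr1h3* from -0.059 to 0.12 and the dimmer *Rxra* probe from -0.21 to 0.087. The genotypes share replicate numbers, and arrays of the same number deviated together with r of 0.204, 0.207, 0.0562 and 0.141, each the highest of its array, a hint from the data that the numbers may pair the samples. With the replicate number as a block, 1167 probes were called, the dimmer *Esrrg* probe gave 0.81 (limma adjusted p = 0.013), and no receptor call changed. Among list genes the block moved *Cpt1b* (0.0564), *Mdh1* (0.0525) and *Nr5a1* (0.0546) above the threshold in adjusted p from limma and *Apoe* (0.0499) and *Apoc2* (0.0365) below it. Signals near background limit what can be said of *Ppard*, the dimmer *Esrrg* probe and *Nr5a1*.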
